A study of Homo sapiens with 6 samples.

Results

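The Krüppel-like factors examined here are 10 genes, KLF3, KLF4, KLF5, KLF6, KLF7, KLF9, KLF10, KLF11, KLF13 and KLF16, taken by symbol from a deposited expression table of 17860 genes. All 10 were listed with a value in every sample. On GRCh38 (GENCODE 29) the genes lie at chr4:38664196-38701042 (KLF3), chr9:107484852-107490482 (KLF4), chr13:73054976-73077542 (KLF5), chr10:3775996-3785281 (KLF6), chr2:207074137-207167267 (KLF7), chr9:70384597-70414624 (KLF9), chr2:10042849-10054836 (KLF11), chr15:31326855-31435665 (KLF13) and chr19:1852399-1863568 (KLF16), with KLF10 on chromosome 8. RNA-Seq was done on HCC1806/HM3 cells, with 3 samples carrying a control shRNA (shNC) and 3 samples carrying an shRNA against mesothelin (shMSLN). HCC1806 is a human breast squamous cell carcinoma line of the triple-negative type, and HM3 is its liver-metastatic derivative, isolated from mice after the third round of selection. Both groups received lentivirus and were selected with G418, so they share the vector and the drug and differ in the shRNA. No sample was a rescue of the knockdown. The sources used here do not say which shRNA sequence the sequenced cells carried or whether the shMSLN samples came from 1 stable line. The labels give replicate numbers but not separate cultures, so every p-value below measures the spread between these samples, which may be technical.

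Krüppel-like factors are transcription factors that bind GC-rich DNA, the GC box and the CACCC box, through zinc fingers at their carboxy terminus. Their amino-terminal parts differ and divide the family by partner: KLF3, KLF8 and KLF12 repress genes through the CtBP corepressors, KLF4, KLF5, KLF6 and KLF7 act mainly as activators, and KLF9, KLF10, KLF11, KLF13, KLF14 and KLF16 recruit the SIN3A-histone deacetylase complex. In epithelia, KLF4 is known for differentiation and growth arrest and KLF5 for proliferation of basal and progenitor cells. KLF5 is also a factor of basal-type breast cancer.

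MSLN, the targeted gene, was at 231, 226 and 227 CPM (read counts relative to library sizes scaled by TMM) in the shNC samples and at 37.1, 36.2 and 35.4 CPM in the shMSLN samples. It was 15.9% of the control level (two-sided exact permutation test of the mean CPM, p = 0.1, the smallest that 3 against 3 samples allow). Library totals ran from 17507837 to 18512135 estimated counts. At this depth KLF11, the lowest member, had 121 to 149 reads per sample. The counts of all 10 members were whole numbers in shMSLN replicates 2 and 3 but those of at most 2 members were whole in any other sample, so these columns may not have been made alike. Results are therefore also given with shMSLN replicate 1 taken apart from replicates 2 and 3. All 10 epithelial markers were listed, with a summed TPM (transcript levels scaled for gene length and depth) of 4449 to 4882 in shNC and 4042 to 4180 in shMSLN. The sum is not a measure of basal or squamous identity alone. It includes KRT8, KRT18 and EPCAM, at means of 689, 632 and 354 TPM in shNC. The 7 fibroblast markers summed to 60.9 to 64.3 TPM in shNC and 118.5 to 121.4 TPM in shMSLN, mostly from LUM, and their part in the results below was not tested. The fibroblast genes COL1A2, COL3A1, DCN and PDGFRA were below 1 TPM in every sample. Of the 8 hepatocyte markers, 6 were listed, and ALB, APOA1, SERPINA1, FGB and CYP3A4 were below 1 TPM in every sample. The remaining one, TF, was at 1.71, 1.79 and 1.59 TPM in shNC and at 1.90, 3.31 and 3.03 TPM in shMSLN. Its log2 fold change (shMSLN against shNC) was 0.66 (edgeR quasi-likelihood test, adjusted p = 0.00303). The TF change was 0.14 with shMSLN replicate 1 alone and 0.86 with replicates 2 and 3, so it rests mostly on those 2 samples. In bulk RNA a smaller number of cells of one kind and less RNA per cell cannot be told apart.

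The DNA before the start sites of these genes was searched for the letters that the family binds. RefSeq promoter sequences (GRCh38.p14) were at hand for 8 of the 10 members, with 13 start sites in all. The GC box was searched as GGGCGG or CCGCCC, both strands of the same motif, and the CACCC box as CCACCC or GGGTGG. Among the 250 bases before each start, 8 of the 13 windows held a GC box, against 42.6% of all 35116 windows. The 8 windows belonged to 7 of the 8 genes, some of which have several windows. A CACCC box was found in 2 of the 13 windows, against 31.3% of all windows. The windows of 4 members are printed, 5′ to 3′ on the strand of the gene, with GC and CACCC boxes in capitals and without any part that falls in an exon of GENCODE 29. KLF13, KLF4 and KLF6 are shown because their RNA fell in shMSLN and KLF16 because its RNA did not pass the test. The windows are chr15:31326585-31326834 (forward strand) for KLF13, chr9:107489770-107490019 (reverse strand, inside the annotated span of the gene) for KLF4, chr10:3785282-3785459 (reverse strand) for KLF6 and chr19:1863580-1863829 (reverse strand) for KLF16.
KLF13: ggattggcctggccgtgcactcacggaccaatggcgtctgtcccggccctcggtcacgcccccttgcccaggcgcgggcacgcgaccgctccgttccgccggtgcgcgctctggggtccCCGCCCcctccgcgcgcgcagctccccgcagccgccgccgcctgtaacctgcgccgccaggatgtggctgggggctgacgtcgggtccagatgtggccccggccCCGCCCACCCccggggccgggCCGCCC
KLF4: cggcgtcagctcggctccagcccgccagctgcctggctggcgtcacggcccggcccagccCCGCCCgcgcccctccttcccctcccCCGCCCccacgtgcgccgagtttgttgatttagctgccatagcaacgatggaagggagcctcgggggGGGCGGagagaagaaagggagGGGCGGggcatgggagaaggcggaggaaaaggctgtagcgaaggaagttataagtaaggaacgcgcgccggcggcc
KLF6: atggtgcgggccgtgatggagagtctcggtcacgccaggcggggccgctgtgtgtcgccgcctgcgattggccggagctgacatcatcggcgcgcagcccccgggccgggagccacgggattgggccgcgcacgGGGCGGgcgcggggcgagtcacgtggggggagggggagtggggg
KLF16: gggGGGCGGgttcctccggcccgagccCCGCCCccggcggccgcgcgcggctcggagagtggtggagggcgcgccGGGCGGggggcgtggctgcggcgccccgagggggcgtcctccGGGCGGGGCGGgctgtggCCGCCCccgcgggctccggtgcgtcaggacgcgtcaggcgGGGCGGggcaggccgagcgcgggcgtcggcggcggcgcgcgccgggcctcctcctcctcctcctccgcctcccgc
The KLF13 window held 3 GC boxes and 1 CACCC box, which shares letters with a GC box. The KLF4 window held 4 GC boxes and the KLF16 window 7, counting overlapping ones. Of the 2 GC boxes in the full KLF6 window, 1 lies in the printed bases. GC content was 78.8% for KLF13, 69.2% for KLF4 and 86.4% for KLF16, beside a median of 58% over all windows. GC boxes thus lay before members that fell and before a member that did not pass the test. The KLF9 window, at 32.4% GC, held none of the motifs searched. The other motifs searched were the TATA box (TATAAA or TTTATA), found before 1 member, KLF5, and in 10.7% of all windows, and the cAMP response element (TGACGTCA, which reads the same on both strands), found before 1 member, KLF11, and in 1.65% of all windows. Such matches describe the letters of these windows and do not show that a factor binds there.

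Levels can be compared between genes only per length, in TPM. KLF5 was by far the most abundant member, at 387 ± 32.7 TPM (SD, n = 3) in shNC and 317 ± 14.4 TPM in shMSLN. It made up 60.8% ± 1.07 of the summed TPM of the 10 members in shNC and 59.7% ± 1.43 in shMSLN. Below it in shNC came KLF3 at 72.5 ± 6.03 TPM, KLF10 at 58.8 ± 2.46 TPM, KLF6 at 47.3 ± 2.69 TPM, KLF7 at 23.2 ± 0.417 TPM and KLF4 at 21.5 ± 0.988 TPM. The lowest levels in shNC were those of KLF13 (9.32 ± 0.715 TPM), KLF16 (7.81 ± 1.26 TPM), KLF9 (4.61 ± 0.575 TPM) and KLF11 (4.28 ± 0.346 TPM). In that order the neighbours KLF13 and KLF16, and KLF9 and KLF11, overlapped between samples, and the other neighbours did not. In shMSLN no neighbours overlapped, and KLF10 (64.4 ± 2.12 TPM) stood above KLF3 (53.6 ± 0.386 TPM), KLF16 (7.45 ± 1.01 TPM) above KLF13 (5.90 ± 0.300 TPM) and KLF11 (4.08 ± 0.166 TPM) above KLF9 (3.69 ± 0.146 TPM). The summed TPM of the 10 members was between 590.6 and 676.1 in shNC and between 517.8 and 540.1 in shMSLN. Without KLF5 the sum was 249 ± 10.7 TPM in shNC and 214 ± 2.94 TPM in shMSLN.

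**Figure D1:**
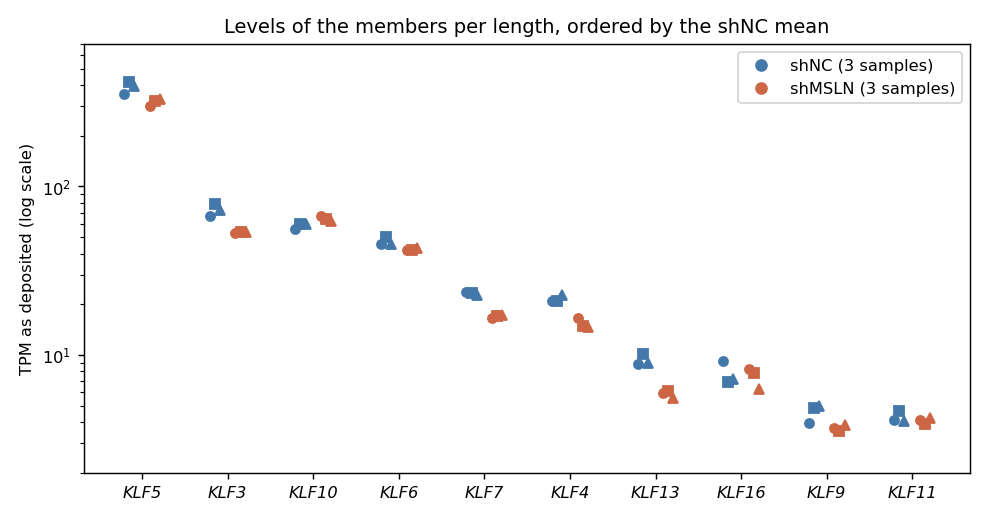
Level of each of the 10 members in TPM (scaled for gene length and depth, logarithmic axis) in every shNC and shMSLN sample. KLF5 lies near 387 TPM in shNC and near 317 TPM in shMSLN, well above the other 9 genes, and KLF9 and KLF11 lie lowest.

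With MSLN knockdown, 7 of the 10 Krüppel-like factors fell. KLF3, KLF4, KLF5, KLF6, KLF7, KLF9 and KLF13 were at 61.9% to 87.5% of their control levels, KLF13 lowest and KLF6 highest. KLF10, KLF11 and KLF16 did not pass the test (edgeR quasi-likelihood test, Benjamini-Hochberg adjusted p below 0.05 over 14552 tested genes). The number called higher was 0 with edgeR, and also 0 with DESeq2 and with limma-voom, and 1 member, KLF10, was higher at an unadjusted p below 0.05 in edgeR. Across all tested genes 18.0% were called lower, 16.6% higher and 34.6% in either direction. The shNC and shMSLN samples did not overlap for 9 of the 10 members, with shMSLN lower for 8 and higher for 1, against 46.2% of all tested genes in either direction, 23.5% lower and 22.7% higher. The median log2 fold change (shMSLN against shNC) of the 10 members was -0.34, beside 0.00 for all tested genes. Over the 15 tested KLF genes, which include these members, the median was -0.18. The members were chosen with earlier results of these data known. Of the genes called in either direction, the median size of the log2 change was 0.29.

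**Figure D2:**
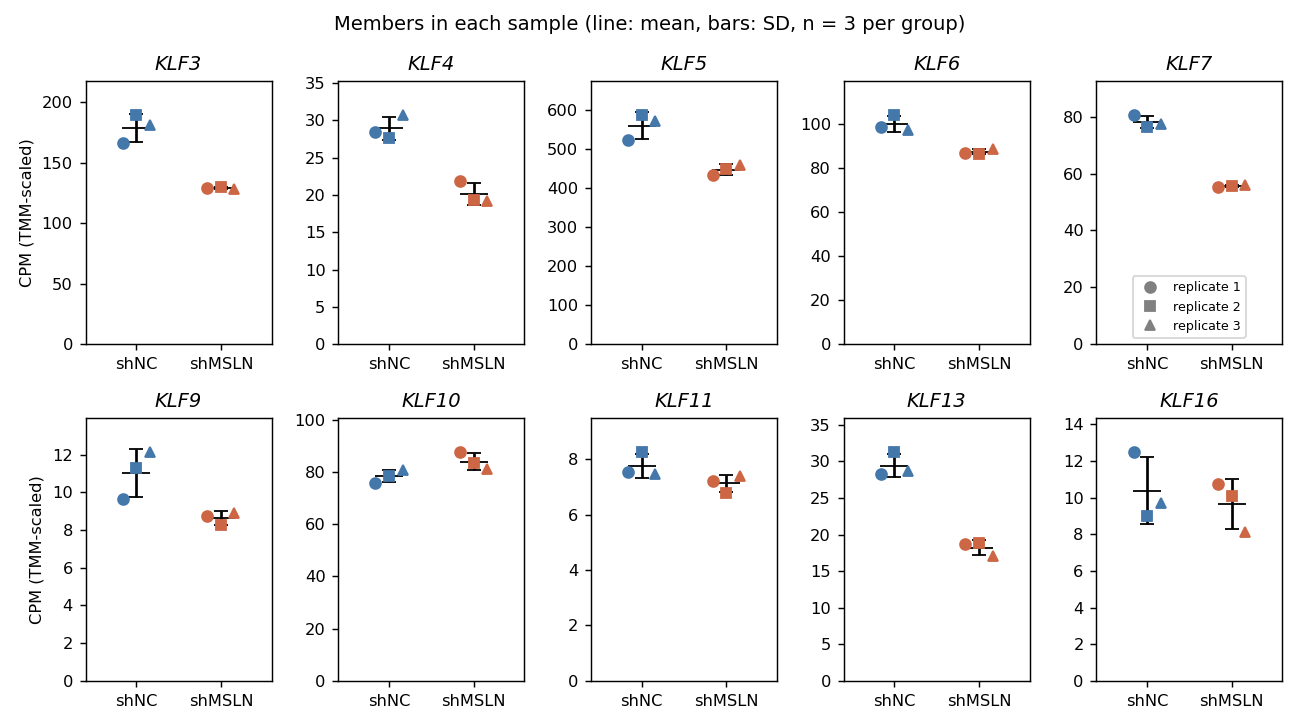
TMM-scaled CPM of each member in the 3 shNC and 3 shMSLN samples, 1 panel a gene, with the group mean (line) and SD (bars). The groups are apart for 9 of the 10 genes and overlap for KLF16.

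The 4 activators among the chosen members all fell, where 18.0% of all tested genes were called lower. The members were chosen with earlier results of these data known. The result can therefore not show that activators fell more often than other genes. KLF2, a tested gene outside the members that was given no class here, did not pass the test (log2 fold change 0.01, adjusted p = 0.989). KLF5, which drives proliferation of basal epithelial cells, was at 522, 587 and 572 CPM in the shNC samples and at 433, 450 and 460 CPM in the shMSLN samples. Every shMSLN sample lay below every shNC sample, and the lowest shNC sample was replicate 1. The log2 fold change was -0.32 ± 0.043 (SE, adjusted p = 4.46e-05), or 79.9% of control. KLF4, a differentiation factor of skin and gut epithelium and a reprogramming factor, was at 28.4, 27.7 and 30.7 CPM in shNC and at 21.8, 19.4 and 19.1 CPM in shMSLN. The groups were well apart, with shMSLN replicate 1 the nearest to the controls. Its log2 change of -0.52 ± 0.071 (adjusted p = 4.99e-05) left 69.6% of control. The ratio of KLF5 to KLF4 in TPM was 16.9 to 19.8 in shNC and 18.2 to 22.4 in shMSLN, so the groups overlapped on that measure.

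KLF7, a factor of neuronal outgrowth and adipocyte biology, had the smallest adjusted p of the members. It was at 80.4, 76.3 and 77.4 CPM in shNC and at 55.3, 55.5 and 56.1 CPM in shMSLN. The 3 shMSLN samples lay within 1 CPM of each other and far below the controls, and the log2 fold change was -0.49 ± 0.044 (adjusted p = 1.02e-06, 71.3% of control). KLF6, a widely expressed activator of the cell cycle inhibitor CDKN1A, was at 98.4, 104 and 97.2 CPM in shNC and at 87.0, 86.4 and 88.7 CPM in shMSLN. The groups did not overlap, but the drop was the smallest of the 7 genes that fell, at a log2 change of -0.19 ± 0.043 (adjusted p = 0.00291). With shMSLN replicate 1 as the lone knockdown sample, KLF6 was no longer called, at -0.20 and adjusted p = 0.111.

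Of the CtBP-binding repressors, KLF3 fell, KLF12 rose and KLF8 did not pass the test. KLF3, a repressor known from erythroid and adipose cells, was at 166, 189 and 181 CPM in shNC and at 129, 130 and 128 CPM in shMSLN. The 3 shMSLN samples were nearly equal and lay below the whole shNC range. The log2 fold change was -0.47 ± 0.046 (adjusted p = 2.37e-06), or 72.2% of control. KLF12, which is not among the 10 genes, is a repressor of the gene for AP-2α and was at 22.6, 24.4 and 22.4 CPM in shNC and at 26.8, 29.2 and 26.9 CPM in shMSLN. Here every knockdown sample lay above every control, at a log2 change of 0.25 ± 0.065 (adjusted p = 0.00712). This call was lost with shMSLN replicate 1 alone (0.21, adjusted p = 0.198). KLF8, at 32.4 ± 0.460 CPM in shNC and 34.4 ± 2.15 CPM in shMSLN, changed by 0.08 with an adjusted p of 0.294. In TPM, KLF3 exceeded KLF12 by 15.4 ± 0.672 times in shNC and by 9.33 ± 0.570 times in shMSLN.

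The SIN3A-binding members were divided, with KLF9 and KLF13 lower and the other 3 not passing the test. KLF13, known as an activator of the chemokine gene CCL5 in T cells, was at 28.3, 31.3 and 28.7 CPM in shNC and at 18.7, 18.9 and 17.1 CPM in shMSLN. The gap between the groups was wide compared with the spread inside either. At a log2 change of -0.69 ± 0.068 (95% interval -0.84 to -0.54, adjusted p = 2.42e-06), KLF13 fell furthest of the 10, to 61.9% of control. A lower log2 fold change was found for 1.86% of all tested genes. KLF9, a target of glucocorticoid and thyroid hormone receptors, was at 9.63, 11.3 and 12.1 CPM in shNC and at 8.76, 8.24 and 8.92 CPM in shMSLN. The groups did not overlap, but shNC replicate 1 came close to the knockdown samples. KLF9 changed by -0.35 ± 0.105 in log2 terms, with an adjusted p of 0.0178, and its call was lost in 4 of the 16 alternative analyses. The fits were those without shNC replicate 3 (-0.28, adjusted p = 0.0975), without shMSLN replicate 2 (-0.32, adjusted p = 0.0780), with shMSLN replicate 1 alone (-0.33, adjusted p = 0.223) and with DESeq2 (adjusted p = 0.0557).

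KLF10, an early response gene of TGF-β, was the only member whose knockdown samples all lay above the controls, and by a narrow margin. It was at 75.9, 78.4 and 80.87 CPM in shNC and at 87.6, 83.3 and 80.93 CPM in shMSLN. The log2 fold change of 0.10 (95% interval 0.00 to 0.20) had an adjusted p of 0.112 and was not called. Scaling changed this: KLF10 was called higher with library totals alone (0.13, adjusted p = 0.0415) and with upper-quartile scaling (0.13, adjusted p = 0.0402). KLF11, its close relative, was at 7.55, 8.26 and 7.46 CPM in shNC and at 7.20, 6.79 and 7.40 CPM in shMSLN. These groups were separated by less than the spread within either, at a log2 change of -0.12 (95% interval -0.35 to 0.11, adjusted p = 0.410). KLF16, a GC-box binder, was at 12.5, 8.98 and 9.68 CPM in shNC and at 10.8, 10.1 and 8.13 CPM in shMSLN. The groups overlapped, and the interval of -0.38 to 0.18 around the log2 change of -0.10 (adjusted p = 0.584) leaves room for a drop of the size seen for KLF5. The ratio of KLF13 to KLF10 in TPM was 0.159 ± 0.00914 in shNC and 0.0917 ± 0.00360 in shMSLN. The ratio of KLF10 to KLF4 was 2.73 ± 0.113 in shNC and 4.20 ± 0.154 in shMSLN.

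Of the 18 KLF genes listed in the table, 15 had enough reads to be tested, and 7 of them were called lower, 1 higher and 7 neither. Over all tested genes 18.0% were called lower and 16.6% higher. The tested genes not yet described were low. KLF2, a factor of quiescent endothelium, was at 1.50 to 2.35 CPM in shNC and 1.56 to 2.02 CPM in shMSLN (log2 fold change 0.01, 95% interval -0.49 to 0.50, adjusted p = 0.989). KLF15, a glucocorticoid-induced gene, changed by -0.18 (adjusted p = 0.340) and KLF14, an imprinted gene, by 0.51 at about 1 CPM (adjusted p = 0.206). KLF1, the erythroid factor that named the family, KLF17 and KLF18 were not tested because their values were low or missing. The SP factors, which share the zinc finger type and bind the same GC box, went both ways. Of those tested, 50% were called, beside 34.6% of all tested genes. Of 8 listed and 6 tested, SP6, a factor of tooth and hair epithelium, fell (-0.33, adjusted p = 0.00113), SP3 fell (-0.17, adjusted p = 0.0135) and SP2 rose (0.19, adjusted p = 0.0275). SP1, the widely expressed activator, was at 244 to 269 CPM in shNC and 250 to 256 CPM in shMSLN, and its log2 fold change was -0.03 (adjusted p = 0.564). SP4 (0.02, adjusted p = 0.912) and SP9 (-0.46 at under 1 CPM, adjusted p = 0.367) did not pass the test, and SP5 and SP8 were too low to be tested. The SP2 and SP3 calls were lost without shMSLN replicate 1 (adjusted p = 0.0572 and 0.0552) and without shNC replicate 2 (0.0523 and 0.0544). SP2 was also lost without shMSLN replicate 2 (0.0940), shMSLN replicate 3 (0.0666) or shNC replicate 3 (0.119), and with DESeq2 (0.106). With shMSLN replicate 1 alone, SP2 (0.291), SP3 (0.136) and SP6 (0.0555) all missed the threshold.

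**Figure D3:**
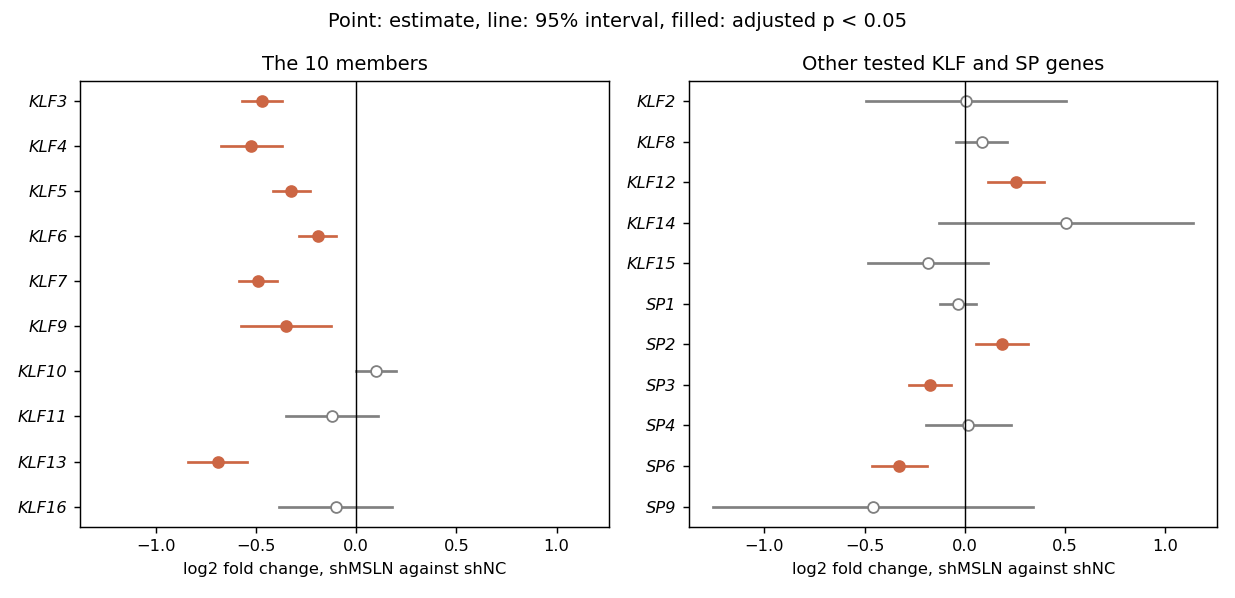
Log2 fold change (shMSLN against shNC, horizontal axis) with its 95% interval for every tested KLF gene and SP factor, filled where the adjusted p was below 0.05. Of the 10 members, 7 lie wholly left of 0 as filled points from KLF13 at -0.69 to KLF6 at -0.19, and KLF12 and SP2 are the filled points on the right.

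The corepressors that the family recruits were also measured, as a list of 16 cofactor genes, all tested. Of these 5 fell, 1 rose and 10 did not pass the test, so 37.5% were called beside 34.6% of all tested genes. The median log2 fold change was -0.04, and without shNC replicate 1 the number called was 10 in place of 6. CTBP1, the partner of KLF3, KLF8 and KLF12, was at 59.8, 60.0 and 57.8 CPM in shNC and at 44.0, 41.8 and 42.4 CPM in shMSLN. Its knockdown samples were far below the controls (-0.47 ± 0.048, adjusted p = 3.20e-06). SUDS3, a subunit of the SIN3A complex, fell from 183 ± 6.25 CPM to 150 ± 2.78 CPM (-0.29, adjusted p = 4.35e-05). HDAC1, the deacetylase of that complex, rose from 257 ± 10.0 CPM to 284 ± 2.20 CPM (0.15, adjusted p = 0.00677), a call that was lost with shMSLN replicate 1 alone (adjusted p = 0.142).

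A list of 12 genes for turnover of KLF proteins was tested, and 4 fell, 1 rose and 7 did not pass the test, so 41.7% were called beside 34.6% of all tested genes. The median log2 fold change was -0.06. VHL, a ubiquitin ligase subunit that targets KLF4, was at 184, 206 and 194 CPM in shNC and at 135, 133 and 141 CPM in shMSLN. The groups were far apart, and the log2 change of VHL was -0.51 (adjusted p = 8.82e-07). BTRC, a substrate receptor of an SCF ubiquitin ligase, fell from 41.7 ± 0.845 to 30.3 ± 1.03 CPM (-0.46, adjusted p = 1.33e-05). USP10, a deubiquitinase, rose from 119 ± 1.86 to 129 ± 4.09 CPM (0.13, adjusted p = 0.0240). The USP10 call was lost without shMSLN replicate 1 (adjusted p = 0.103), without shMSLN replicate 3 (0.0751), without shNC replicate 3 (0.104) and with shMSLN replicate 1 alone (0.123). These are RNA levels, and no KLF protein was measured in these data.

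Of 18 tested genes upstream of KLF genes, 6 fell, 2 rose and 10 did not pass the test (median log2 fold change -0.06). The share called was 44.4%, beside 34.6% of all tested genes. The TGF-β ligand TGFB2 was at 59.5, 57.1 and 62.4 CPM in shNC and at 37.0, 43.1 and 39.2 CPM in shMSLN. Its receptor gene TGFBR1 fell from 35.4 ± 1.38 to 25.6 ± 1.50 CPM (-0.47, adjusted p = 3.95e-05), and the log2 change of TGFB2 was -0.59 (adjusted p = 3.16e-06). KLF10 and KLF11, both TGF-β response genes, did not pass the test in the same samples. MEF2C, a factor that acts on KLF2 and KLF4 genes, rose from 10.7 ± 0.222 to 17.2 ± 0.377 CPM (0.68, adjusted p = 7.86e-06). NR3C1, the glucocorticoid receptor, rose from 122 ± 7.48 to 142 ± 3.39 CPM (0.22, adjusted p = 0.00188), and its target KLF9 fell. THRB, a thyroid hormone receptor gene named after its values were seen, fell from 26.5 ± 0.938 to 18.9 ± 1.13 CPM. Its log2 fold change was -0.49 (edgeR adjusted p = 6.04e-05). A link of either receptor to the KLF9 change was not tested. With shMSLN replicate 1 alone NR3C1 was not called (adjusted p = 0.143). Of 7 tested glucocorticoid-induced genes other than KLF genes, FKBP5 rose (0.53, adjusted p = 1.74e-05), SGK1 fell (-0.74, adjusted p = 3.38e-05) and 5 did not pass the test, which puts 28.6% as called.

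Several KLF genes respond early to serum and growth factors, so the immediate-early genes were set beside them. Of 11 tested, 4 rose, 2 fell and 5 did not pass the test, so 54.5% were called beside 34.6% of all tested genes. The median log2 fold change was 0.06, over a list chosen with earlier results of these data known. EGR1, a zinc finger factor that also binds GC-rich DNA, was at 14.9, 16.2 and 14.6 CPM in shNC and at 56.6, 54.0 and 52.9 CPM in shMSLN. Every knockdown sample lay far above every control, at a log2 change of 1.84 (adjusted p = 5.12e-11). FOS rose from 1.17 to 2.13 CPM in shNC to 4.29 to 4.89 CPM in shMSLN (1.44, adjusted p = 6.35e-05). BTG2 (-0.51, adjusted p = 4.14e-06) and IER5 (-0.22, adjusted p = 0.00966) fell, but IER5 was not called without shMSLN replicate 2 (adjusted p = 0.0581) or with shMSLN replicate 1 alone (0.130).

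Of 20 listed target genes of KLF4 and KLF5, 16 were tested and 14 were called, with 8 lower and 6 higher. That is 87.5% of the tested targets, beside 34.6% of all tested genes, with a median log2 fold change of -0.12. The list was chosen with earlier results of these data known. Its share can therefore not show that such targets changed more often than other genes. TNFAIP2, a KLF5 target, was at 1878, 1917 and 1838 CPM in shNC and at 974, 927 and 914 CPM in shMSLN. The groups were far apart, with shMSLN at 49.98% of control (log2 fold change -1.001, adjusted p = 5.98e-11). CCND1, which encodes cyclin D1 and is activated by KLF5 and repressed by KLF4, was at 431, 401 and 411 CPM in shNC and at 316, 319 and 315 CPM in shMSLN (-0.39, adjusted p = 1.38e-06). KRT13, a keratin of stratified squamous epithelium, rose from 1619 ± 39.8 to 2081 ± 10.5 CPM (0.36, adjusted p = 5.06e-07). LAMA3, a laminin chain of the epithelial basement membrane, rose from 129 ± 5.11 to 161 ± 0.844 CPM (0.32, adjusted p = 2.53e-05). CDKN1A, a target that both KLF4 and KLF6 activate, was named after its values were seen and its log2 change was -0.58 (adjusted p = 3.57e-05). The targets thus moved in both directions while KLF4 and KLF5 fell. The list was not split into activated and repressed targets, so these directions cannot show whether the targets followed KLF4 or KLF5. Such a link was not tested. The 10 epithelial markers were also mixed, with 4 lower (KRT18 among them), 3 higher (CDH1 among them) and 3 not passing the test. Their part in these results was not tested.

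**Figure D4:**
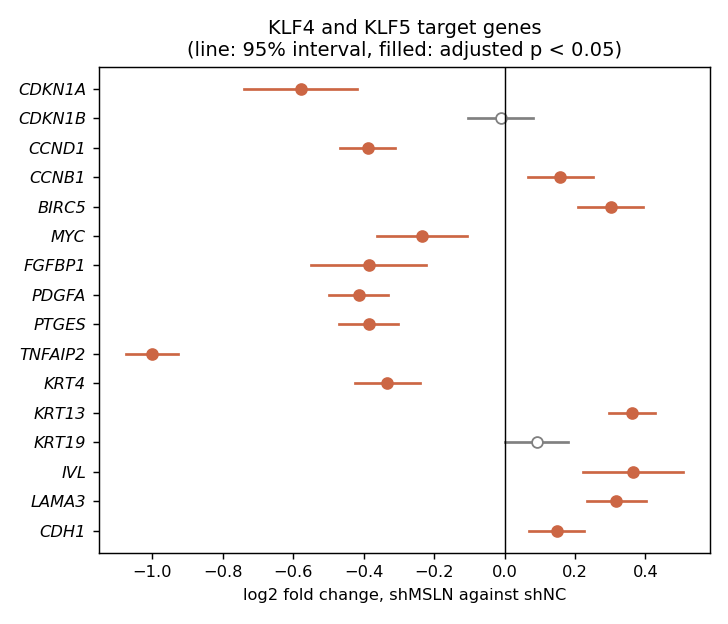
Log2 fold change (shMSLN against shNC, horizontal axis) with its 95% interval for the 16 tested target genes of KLF4 and KLF5, filled where the adjusted p was below 0.05. TNFAIP2 lies at -1.001, 8 filled points lie left of 0 and 6 right of it.

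Since the shMSLN columns may not have been made alike, the members were read separately in shMSLN replicate 1 and in replicates 2 and 3, both against the same 3 shNC samples. KLF3 changed by -0.47 in replicate 1 and by -0.47 in replicates 2 and 3, KLF7 by -0.49 and -0.49, and KLF13 by -0.66 and -0.71. KLF5 changed by -0.37 and -0.30 and KLF4 by -0.40 and -0.59. These 5 genes were called in both readings. KLF9 (-0.33 and -0.36) and KLF6 (-0.20 and -0.19) were not called in replicate 1, where a lone sample is assumed to vary as the controls do. KLF16 was at 0.05 in replicate 1 and -0.19 in replicates 2 and 3. The 2 readings share their controls and are not independent of each other.

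**Figure D5:**
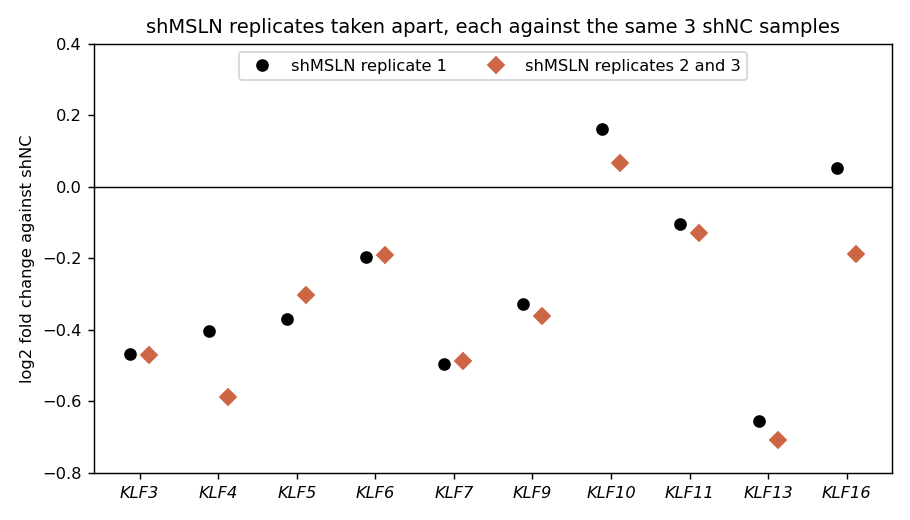
Log2 fold change of each member against the same 3 shNC samples, for shMSLN replicate 1 (circles) and for shMSLN replicates 2 and 3 together (diamonds). The symbols of KLF3 and KLF7 are level with each other, and those of KLF16 lie on opposite sides of 0.

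Across the 6 samples, the genes with a pattern most like that of KLF7 were KARS1, CEACAM5 and OAS3, among 10501 genes with a mean of at least 10 CPM. Pearson's r of log2 CPM with KLF7 was 0.9996 for KARS1, 0.9994 for CEACAM5 and 0.9991 for OAS3. CEACAM5, a cell surface glycoprotein of epithelial tumours, went from 47.6 ± 3.04 CPM in shNC to 19.8 ± 0.360 CPM in shMSLN. KARS1, the lysyl-tRNA synthetase, went from 149 ± 2.60 to 114 ± 0.756 CPM, and OAS3, an interferon-induced synthetase, from 224 ± 7.94 to 165 ± 0.681 CPM. The points are the same 6 libraries in 2 groups, and 1501 genes had an r above 0.9, so the values describe these libraries alone.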

How the data were processed

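RNA-Seq of 3 shNC and 3 shMSLN samples of HCC1806/HM3 cells was examined, with groups and replicate numbers taken from the sample titles. The authors deposited 1 table of 17860 genes holding an estimated count, an FPKM value and a TPM value per gene and sample. The submitters' processing notes name the build GRCh38.p13, and the aligner, the quantifier and the annotation are not given in the sources used here. The deposited shMSLN columns hold missing marks among other values of the same units, and the 1287 genes lacking a value in any sample were left out, leaving 16573. The deposited estimated counts carry no library scaling and were rounded to whole numbers. The deposited FPKM values were not used, and the deposited TPM values served only for levels between genes. The number of per-sample columns not matched to a sample was 0.

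The quasi-likelihood test of edgeR 4.0.16 (R 4.3.3) was run with glmQLFit and glmQLFTest after TMM scaling and filterByExpr by group, without covariates and with Benjamini-Hochberg adjustment over 14552 tested genes and a threshold of 0.05. Intervals are 95% intervals from the same fit, and the procedure was tested on simulated data. Alternatives used DESeq2 1.42.0, limma 3.58.1 (limma-voom), other scalings and count filters, a replicate block and fewer samples. The members and the gene lists were chosen with earlier results of these data known. Named genes were the 10 members, MSLN, every other KLF and SP gene with a value, the 2 called genes with the smallest adjusted p in each direction of each further list, and the 3 genes most like the member with the smallest adjusted p. CDKN1A falls outside this rule and was chosen after its values were seen, and marker genes were named where a summed level rests on them. Reads of overlapping genes on the 2 strands may not be told apart, since strand handling is not given in the sources used here.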

Additional observations from a re-analysis of the deposited data

How the results depend on the processing

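KLF3, KLF4, KLF5, KLF7 and KLF13 kept their direction and their call in all 16 alternatives, KLF6 in 15 and KLF9 in 12. With library totals only and with upper-quartile scaling, 1 member (KLF10) was called higher in place of 0, and the median log2 fold change of all tested genes moved to 0.03. Library totals gave 2905 genes called higher and 2135 lower and upper-quartile scaling 2911 and 2149, in place of 2411 and 2621. With shMSLN replicate 1 alone, 1797 genes were called in place of 5032, along with 0 other KLF genes, 0 SP factors, 3 cofactors, 2 turnover genes and 3 immediate-early genes, from fewer samples. SP6 was then lost too (adjusted p = 0.0555). Leaving out 1 sample at a time gave 3695 (without shMSLN replicate 2) to 5399 (without shNC replicate 1) called genes, 6 to 7 called members, 1 to 3 SP factors (1 without shMSLN replicate 1 or shNC replicate 2), 4 to 10 cofactors (10 without shNC replicate 1), 4 to 5 turnover genes and 4 to 7 immediate-early genes.

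Among the tested KLF and SP genes, MSLN and the other genes named for a list or for likeness to KLF7, the direction turned for KLF16, KLF2 and SP4, none of them called, and the cause was not tested. THRB and list genes not named in the text were not followed in this way. With shMSLN replicate 1 alone the log2 fold changes of KLF16, KLF2 and SP4 were 0.0518, -0.237 and -0.0114. Over the fits leaving out 1 sample they ranged from -0.20 to 0.05 for KLF16 (0.0075 without shMSLN replicate 3, 0.0507 without shNC replicate 1), from -0.12 to 0.22 for KLF2 (-0.060 without shMSLN replicate 2, -0.042 without shMSLN replicate 3, -0.062 without shNC replicate 2, -0.121 without shNC replicate 3) and from -0.09 to 0.15 for SP4 (-0.013 without shMSLN replicate 3, -0.0896 without shNC replicate 1, -0.0020 without shNC replicate 3).

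With the replicate number as a block, 5789 genes were called and 7 members, with no member's call changed. The deviations of samples with the same number correlated at 0.197, 0.080 and 0.086, so the numbers were not taken to pair the samples, although every sample correlated best with its own number. KLF2, KLF14 and SP9, at about 2 CPM or less, have the widest intervals of the tested KLF and SP genes. FOS was at a mean of 1.71 CPM in shNC, near KLF2 at 1.84 CPM, but at 4.67 CPM in shMSLN. FOS was called at a larger change (1.44).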
